A study of Mus musculus with 31 samples.

Results

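The variable (V) segments of the T cell receptor (TCR) genes are the exons that supply the antigen-binding end of each receptor chain, and their RNA was followed here in thymocyte cultures and in group 2 innate lymphoid cells (ILC2). Members were the rows of the 2 deposited count tables whose Ensembl identifier has the GENCODE biotype TR_V_gene, which gave 144 of 48881 genes. Of these, 108 carry Trav symbols (alpha), 22 Trbv symbols (beta), 7 gamma symbols (Tcrg-V or Trgv), 5 Trdv symbols (delta) and 2 only clone names on chromosome 14. At least 1 read was counted for 128 of them, and 26 had 30 counts or more over all 31 libraries.

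A TCR chain is assembled by joining a V segment to a J segment, with a D segment between them in the beta and delta chains, through cuts made by the RAG1 and RAG2 recombinase. The gamma, delta and beta loci are joined in early CD4-CD8- (DN) thymocytes, mostly before or at the DN3 stage, and the alpha locus later. V segments that have not been joined can also be transcribed, as germline RNA, before recombination. E2A and HEB, the E proteins encoded by Tcf3 and Tcf12, switch on Rag genes and many receptor gene regions in thymocytes, and Id proteins block them. ILC2 make type 2 cytokines and carry no TCR at their surface.

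The study asked whether loss of E protein activity turns T cell precursors toward ILC2. DN1 and DN3 thymocytes of C57BL/6 mice, all carrying R26-CreERT2 and R26-stop-tdTomato, were grown over OP9-DL1 stroma, which presents the Notch ligand DL1, and were given stem cell factor, IL-7 and IL-2. Floxed cultures also had E2Af/f and HEBf/f alleles, and control cultures did not. Day 4 libraries preceded 4-hydroxytamoxifen (4-OHT), which starts Cre in both genotypes, and libraries of days 5 and 7 came from sorted tdTomato+ cells. The labels of the DN1 day 7 samples place 4-OHT on day 7, where the design text gives day 4. Each of these 12 groups had 2 libraries, lettered a and b (floxed) or c and d (control). ILC2 were isolated directly from the thymus (2 libraries, numbered 1 and 3) and the lung (2 libraries, numbered 1 and 3) of plck-Cre E2Af/f HEBf/f mice, called dKO, and from the lung of plck-Id1 transgenic mice (3 libraries). The plck promoter is active in thymocytes, so deletion or transgene expression in ILC2 rests on its activity in their precursors or in themselves. The genotype labels of Id1 replicates 2 and 3 name Id2 and Id3, while their titles give Id1, and titles were used. No label says whether replicates are separate animals or cultures, so each p measures only the spread between these libraries.

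Depth was 5908459 to 10692186 counts in culture libraries, 4818443 and 5669876 for ILC2 of the thymus, 3695522 and 5627406 for dKO and 9671437 to 13065445 for Id1 ILC2 of the lung. At day 7, Tcf12 RNA was at 110 and 103 CPM (each count scaled to its library's total) in floxed DN1 cells against 273 and 285 in control cells, and at 165 and 146 against 515 and 512 in DN3 cells. Id1 had 335, 798 and 687 counts in the Id1 lung libraries and 0 and 1 in lung dKO. Among the cultures 2 libraries stood apart. DN1 floxed a on day 4 held 71.8 CPM summed over 7 alpha-beta T cell markers, against 15.3 to 30.1 in the other 3 DN1 libraries of that day, and 387 CPM over 4 skeletal muscle markers against 16.6 to 46.1. On day 7, DN1 floxed b held 6377 CPM of the muscle markers, against 4.61 to 49.5 in the other 3. The 2 lung dKO libraries had a count for 29734 and 30196 genes, against 22504 to 24722 in lung Id1, although they were shallower.

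The sequences below show why the gamma segments have to be read with care and which segments led each kind of cell. Each is the last 75 bases of the segment's transcript in GENCODE M21 (GRCm38), 5′ to 3′ on the coding strand. Capitals mark a tyrosine codon, any codon and a cysteine codon (TAC or TAT, NNN, TGT or TGC), the conserved end of a V segment just before the junction. The motif was searched on the coding strand of this window alone, and 142 of the 144 members (98.6%) hold it.
Trgv2 (chr13:19336573-19337167, minus strand): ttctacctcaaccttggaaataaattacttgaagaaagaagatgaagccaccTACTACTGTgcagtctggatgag
Tcrg-V1 (chr13:19339989-19340454, plus strand): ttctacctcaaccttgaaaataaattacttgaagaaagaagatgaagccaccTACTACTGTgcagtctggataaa
Tcrg-V3 (chr13:19242845-19243301, plus strand): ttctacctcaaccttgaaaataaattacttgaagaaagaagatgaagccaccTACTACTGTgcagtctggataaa
Tcrg-V4 (chr13:19184974-19185506, plus strand): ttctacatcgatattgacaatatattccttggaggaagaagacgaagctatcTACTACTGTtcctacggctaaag
Tcrg-V7 (chr13:19178024-19178492, plus strand): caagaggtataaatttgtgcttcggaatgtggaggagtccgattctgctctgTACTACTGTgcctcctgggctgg
Trbv13-2 (chr6:41121396-41121832, plus strand): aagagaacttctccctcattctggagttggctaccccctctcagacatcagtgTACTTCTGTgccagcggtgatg
Trdv5 (chr14:54148662-54149294, minus strand): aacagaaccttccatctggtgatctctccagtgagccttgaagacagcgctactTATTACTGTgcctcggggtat
Trdv4 (chr14:54074905-54075515, plus strand): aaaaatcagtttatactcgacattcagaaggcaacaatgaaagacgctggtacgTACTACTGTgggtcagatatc
Trav7d-3 (chr14:52744249-52744840, plus strand): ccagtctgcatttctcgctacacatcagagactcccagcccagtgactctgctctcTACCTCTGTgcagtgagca
Trav7-3 (chr14:53443249-53443839, plus strand): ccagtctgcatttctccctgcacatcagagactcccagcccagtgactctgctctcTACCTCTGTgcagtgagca

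In this window Tcrg-V1 and Tcrg-V3 are the same, and Trgv2 is close to both. Over whole transcripts, Trgv2 and Tcrg-V1 matched at 95.2% of aligned bases and Tcrg-V1 and Tcrg-V3 at 95.7%. Of the 50-base windows, 24.6% of those in Tcrg-V1, 19.4% of those in Tcrg-V3 and 7.0% of those in Trgv2 occur in another gene. Reads from such windows can be split or dropped in counting, so the values of these 3 segments are uncertain to that extent. The same caution is stronger for the alpha locus, where 67 of 108 segments share over 50% of their windows, as Trav7d-3 and Trav7-3 do (99.0% identical). Trgv2 and Tcrg-V1 are neighbours that point away from each other, with 2821 bases between them. Along its own strand the next constant gene for Trgv2 is Tcrg-C2, 29022 bases away, and for Tcrg-V1 it is Tcrg-C4, 4104 bases away. The strand setting of the counting is unknown, so reads of Trdv5 cannot be told apart from those of Trdc, which it overlaps in antisense. The same holds for Tcrg-V4, Tcrg-V6 and Tcrg-V7, which overlap the predicted gene Gm31887, for Trdv2-2 with Gm43647 and for Trdv4 with Gm30275.

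The cultures and thymic ILC2 carried mainly gamma V RNA, and ILC2 from mice carried a broader set of segments. All V segments together reached 4.60 to 35.8 CPM in the 12 DN1 libraries, 65.5 to 147 in the 12 DN3 libraries, 183 and 171 in ILC2 of the thymus, and in the lung 151 and 112 (dKO) and 39.7 to 63.9 (Id1). Gamma segments made up a median 83.1% of V counts in DN1 (58.7 to 97.4%) and 92.0% in DN3 (89.1 to 95.1%). Trgv2 and Tcrg-V1 alone held 52.2 to 87.9% of V counts in DN1 and 85.9 to 91.4% in DN3, but 51.9 and 51.5% in thymic ILC2 and 12.3 to 34.0% in the 5 lung libraries. In bulk RNA, fewer cells that carry a transcript and less of it per cell cannot be told apart. Gene counts carry no junctions either, so RNA of a joined segment and germline RNA of an unjoined one cannot be told apart in any of the values below.

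**Figure D1:**
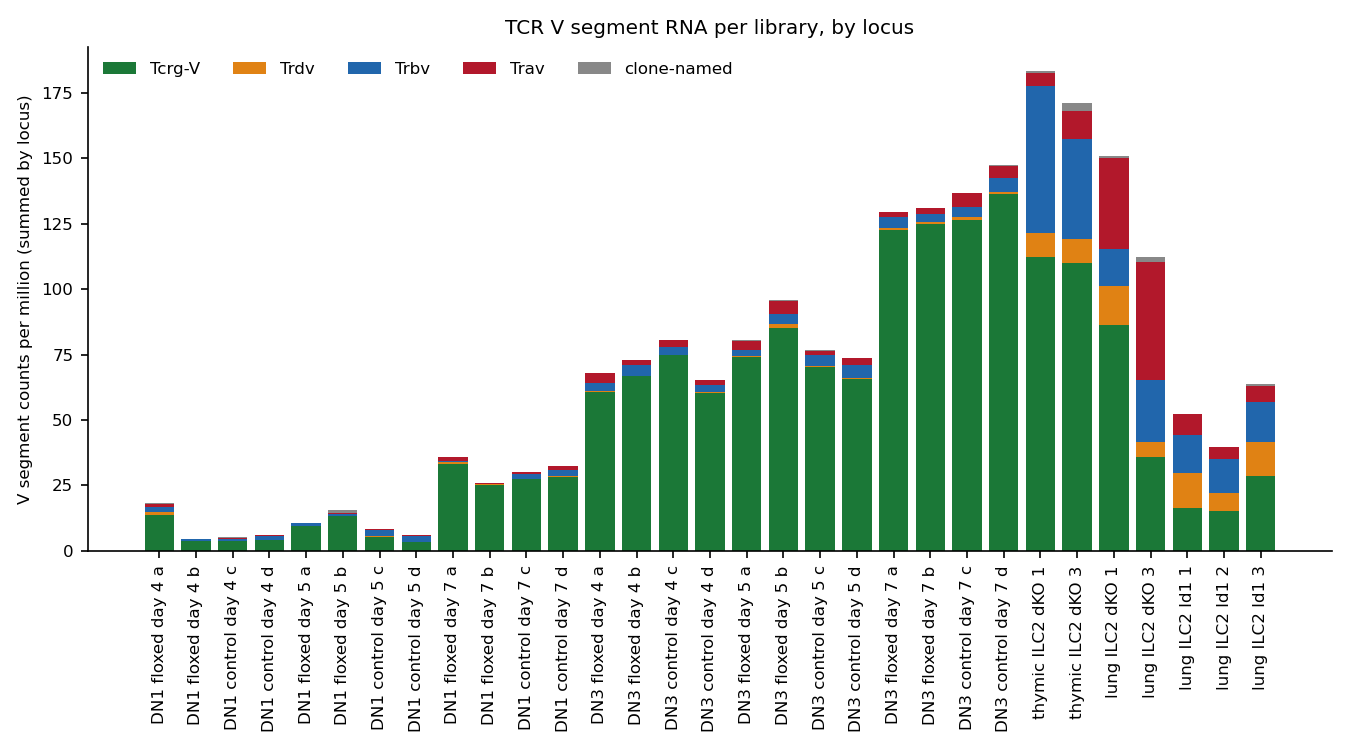
V segment levels in CPM (y axis), stacked by locus, for each of the 31 libraries (x axis, 1 bar each). Gamma segments (green) fill most of every DN3 bar, while beta (blue) and alpha (red) are thin there. Beta takes a larger share of the bars of ILC2 from thymus and lung, and alpha of the lung bars.

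Markers of the labelled cells were present. Over 9 ILC2 markers the lung libraries summed to 1886 to 5133 CPM and the thymic ones to 597 and 1211, where Il5 was at 0 in library 1 and Il13 in library 3. The thymic sums overlapped those of the floxed DN3 cultures of day 7 with which they are compared, 1109 and 1320 CPM.

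A segment was called used in a group when it had at least 10 counts over the group and at least 1 in every library. By that rule the 12 culture groups used 2 to 7 segments, thymic ILC2 used 14, lung dKO 18 and lung Id1 13. Trgv2 and Tcrg-V1 were used in all 15 groups. Tcrg-V3 was used in every DN3 group and, among DN1 groups, on day 7 alone. No culture group used Tcrg-V4 or Trbv2 by this rule, and Trdv5 was used in thymic ILC2 alone. Over the 12 DN3 libraries together, Trbv2 still had 41 counts, in 11 libraries, and Tcrg-V4 had 27, in 9. Trbv2 had 0 counts in lung Id1. Trbv13-2, used by all 3 ILC2 groups, was used in cultures only by DN1 controls of days 4 and 5, with 2 to 8 counts per library.

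On day 4, before deletion was induced, DN3 control cells already held more gamma V RNA than DN1 control cells. Trgv2 was at 56.4 and 48.3 CPM in DN3 control libraries of day 4 and at 2.15 and 1.71 CPM in DN1 controls. The log2 difference was 4.70 ± 0.44 (SE), with an adjusted p of 1.86e-07 in edgeR's quasi-likelihood test. Both DN3 libraries lay above both DN1 libraries, as they did for Tcrg-V1, which had 16.9 and 11.4 against 1.67 and 2.28 CPM (2.80 ± 0.32, adjusted p = 1.39e-06). Tcrg-V3 had 9 and 4 counts in DN3 and none in DN1, at least 4.49-fold higher (floor of 3 counts over the DN1 group). Thus the 3 segments that passed the filter on low counts were all higher in DN3, beside 14.9% of all 15172 tested genes. The other 141 segments were too low to be tested in the cultures. At day 7 the same 3 segments were higher in DN3 controls, beside 11.2% of tested genes, Trgv2 by 2.64 ± 0.34 (adjusted p = 1.08e-05) and Tcrg-V1 by 1.46 ± 0.24 (0.000153). Of the listed genes of receptor assembly and signalling (Rag1, Rag2, Dntt, Ptcra, Cd3d, Cd3e, Cd3g, Cd247, Lck), all 9 were higher in DN3 at day 4 and 8 at day 7.

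Gamma V RNA rose with time in control cultures of both precursors. In DN1 controls Trgv2 went from 2.15 and 1.71 CPM on day 4 to 15.65 and 14.98 on day 7 (2.93 ± 0.47, adjusted p = 5.09e-05). Tcrg-V1 went from 1.67 and 2.28 to 10.7 and 12.4 CPM (2.52 ± 0.32, 3.03e-06). For Tcrg-V3, 0 and 0 counts became 9 and 4, at least 4.10-fold higher. All 3 tested segments were higher at day 7, beside 17.2% of tested genes, and in DN3 controls likewise, beside 12.1%. There Tcrg-V1 rose from 16.9 and 11.4 to 27.9 and 34.7 CPM (1.18 ± 0.24, adjusted p = 0.00101) and Tcrg-V3 from 9 and 4 to 29 and 51 counts (2.39 ± 0.54, 0.00295). Without DN3 control d of day 4, Tcrg-V3 missed the threshold (1.75, adjusted p = 0.0637). Trgv2 went from 56.4 and 48.3 to 94.0 and 95.8 CPM (0.88 ± 0.31, 0.044), and lost its call when any 1 of the 4 libraries was left out (adjusted p 0.108 to 0.234), with RLE size factors (0.0539) and in DESeq2 (0.233). The contrasts between precursors and between days share control libraries with each other and with the tests of deletion. A tdTomato sort is described for days 5 and 7 and not for day 4. The summed CPM of 6 stromal markers was 3890 and 3693 in DN1 and 733 and 862 in DN3 controls on that day, against 52.4 to 139 on day 7, and its part in these rises was not tested.

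After E2A and HEB deletion in DN1 cells, the neighbours Trgv2 and Tcrg-V1 differed from controls in opposite directions. On day 7 Trgv2 had 29 and 27 counts (3.73 and 3.60 CPM) in floxed cells and 129 and 120 counts (15.65 and 14.98 CPM) in control cells. It fell by 1.999 ± 0.42 on the log2 scale (edgeR adjusted p = 0.00215). Tcrg-V1 had 209 and 141 counts (26.9 and 18.8 CPM) in floxed and 88 and 99 counts (10.7 and 12.4 CPM) in control cells. It was higher in floxed cells by 1.04 ± 0.24 (adjusted p = 0.00404). For both segments every floxed library lay on one side of both controls. Of the 3 tested segments 1 was higher and 1 lower in floxed cells, beside 12.2% and 10.3% of all tested genes.

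Other cell markers moved with this comparison. The 9 ILC2 markers summed to 1522 and 1550 CPM in floxed against 306 and 271 in control cells, the 7 alpha-beta markers to 23.5 and 19.4 against 70.5 and 67.4, and the 5 gamma-delta markers to 1186 and 1150 against 839 and 792. Cd8a was at 0 in both floxed libraries. Their part was not tested. Without floxed b, the library with muscle RNA, the differences were -2.001 for Trgv2 and 1.25 for Tcrg-V1.

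The ratio of Trgv2 to Tcrg-V1 counts shows the shift without any scaling between libraries. It was 0.139 and 0.191 in floxed DN1 cells of day 7 and 1.47 and 1.21 in control cells, where the 2 segments stood level per length (31.2 and 30.8 CPM per kilobase of transcript). Tcrg-V3, with the same 3′ end as Tcrg-V1, had 19 and 15 counts against 9 and 4 (1.52 ± 0.56, adjusted p = 0.0617, not called). Gamma segments summed to 257 and 188 counts in floxed and 226 and 227 in control cells (log2 ratio of mean CPM 0.06, not tested), and the libraries overlapped in CPM. The 4 gamma constant genes did not move together. Tcrg-C2, the next constant gene along the strand of Trgv2, was lower in floxed cells (-0.49 ± 0.15, adjusted p = 0.0258). Tcrg-C4, the next along that of Tcrg-V1, was not called (-0.15 ± 0.14, 0.474). Tcrg-C1, the most abundant, was higher, at 1033 and 1004 against 606 and 574 CPM (0.85 ± 0.14, 0.000227), and so was Tcrg-C3 (0.65 ± 0.23, 0.0499). Over 9 alternative settings the adjusted p of Trgv2 reached at most 0.0188. That of Tcrg-V1 rose above 0.05 with the 2 compared groups alone (0.085) and without control c (0.0551).

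Tcrg-V1 was called on day 5 already, and Trgv2 was not. On that day Tcrg-V1 had 50 and 71 counts (7.05 and 10.1 CPM) in floxed DN1 cells and 18 and 13 counts (2.67 and 1.65 CPM) in controls. The groups did not overlap, and the difference was 1.97 ± 0.33 (adjusted p = 0.0012, at most 0.0454 over 9 alternatives), beside 2.56% of tested genes that were higher. Trgv2 was then at 13 and 21 counts against 16 and 11, with overlapping libraries (0.34 ± 0.64, adjusted p = 0.864). The ratio of Trgv2 to Tcrg-V1 was already apart on day 5, at 0.26 and 0.296 in floxed and 0.889 and 0.846 in control cells. On day 4, before 4-OHT, 0 of 3 tested segments were called, beside 0.105% of genes, while 2 had an unadjusted p under 0.05. Tcrg-V1 already had 46 and 17 counts (4.30 and 2.61 CPM) in floxed libraries, above 14 and 16 (1.67 and 2.28 CPM) in controls. That difference was 0.87 ± 0.36 (adjusted p = 0.961), and its part in the later ones was not tested. Trgv2 had 95 counts in the library that stood apart (floxed a), 7 in floxed b and 18 and 12 in the controls. Its log2 difference was 1.499 ± 0.52 with that library (adjusted p = 0.665) and -0.86 without it. Without floxed b instead, and without the filter, the segment was called (adjusted p 0.000528 and 0.000129). DESeq2 called 0 segments there too. The ratio of Trgv2 to Tcrg-V1 on day 4 was 2.07 in floxed a and 0.412 in floxed b, against 1.29 and 0.75 in controls.

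**Figure D2:**
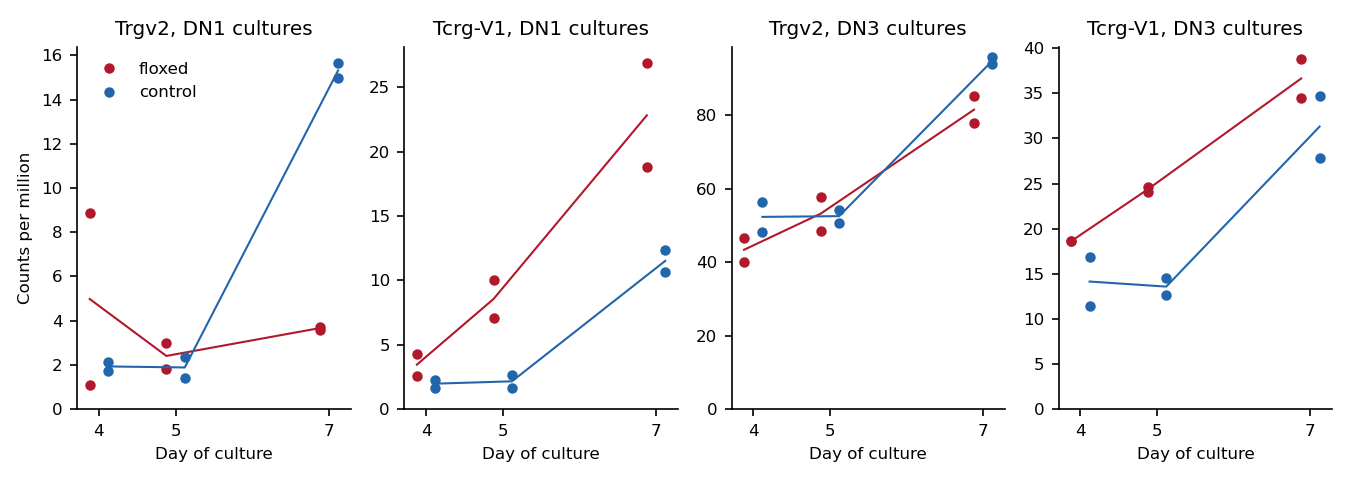
Trgv2 and Tcrg-V1 in CPM (y axes, each from 0) against day of culture (x axes), with 1 point per library and lines through the means of floxed (red) and control (blue) libraries. In DN1 cultures of day 7 floxed points sit at 3.60 and 3.73 for Trgv2 under controls at 14.98 and 15.65, and above the controls for Tcrg-V1, while in DN3 cultures the points of both genotypes are higher on day 7 than on day 4.

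No gamma segment was called in DN3 cells on day 7. On day 7 Trgv2 had 460 and 630 counts (77.9 and 85.3 CPM) in floxed and 664 and 927 counts (94.0 and 95.8 CPM) in control cells (-0.15 ± 0.30, adjusted p = 0.781). Tcrg-V1 was at 38.8 and 34.5 against 27.9 and 34.7 CPM, with overlap (0.29 ± 0.22, 0.396). None of the 3 tested segments was called by edgeR on day 7 (24.9% of all genes in either direction) or on day 4 (0.442%), none had an unadjusted p under 0.05 on either day, and DESeq2 also called 0. On day 5 Tcrg-V1 was higher in floxed cells, 24.1 and 24.7 against 14.5 and 12.7 CPM (0.78 ± 0.24, adjusted p = 0.043), beside 4.56% of genes that rose. That call was lost when any 1 of the 4 libraries was left out (adjusted p 0.109 to 0.225) and with the replicate letter as a block (0.0702). The ratio of Trgv2 to Tcrg-V1 was 2.01 and 2.47 in floxed and 3.37 and 2.76 in control DN3 cells of day 7. It was already apart on day 4, before 4-OHT (2.16 and 2.51 against 3.34 and 4.25), and on day 5 (2.02 and 2.35 against 3.75 and 4.01). Tcrg-V1 did not overlap on day 4 either, at 18.6 and 18.6 against 16.9 and 11.4 CPM (0.42 ± 0.24, adjusted p = 0.688). The 9 ILC2 markers on day 7 summed to 1109 and 1320 CPM in floxed DN3 cells, with Areg at 0 in both, and to 282 and 210 in controls. Their part was not tested.

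The day 7 response of Trgv2 differed between the precursors. It was -1.999 in DN1 and -0.15 in DN3, a difference of -1.85 ± 0.53 (interaction term, adjusted p = 0.0357), beside 3.98% of genes with a lower response in DN1. This test was added after the results were seen. It held without DN1 floxed a and lost its call without any other 1 of the 8 libraries (adjusted p 0.0609 to 0.107, difference -1.77 to -1.92). For Tcrg-V1 the difference was 0.76 ± 0.33 on day 7 (0.169) and 1.19 ± 0.41 on day 5 (0.192). Neither was called, and on day 5 none of the 3 segments passed (1.36% of all genes did).

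Beta V segments were scarce in the cultures although the beta constant genes were abundant. The Trbv segments summed to 0 to 21 counts per library in DN1 and 17 to 54 in DN3, beside 4936 to 21545 counts of the constant genes Trbc1 and Trbc2. Thymic ILC2 held 320 and 185 Trbv counts beside only 3935 and 2224 of Trbc. Lung dKO held 81 and 88 beside 2942 and 1442, and lung Id1 189, 128 and 170 beside 3477, 2690 and 3600. On day 7 the DN1 cells had 4 and 0 Trbv counts when floxed and 16 and 18 in controls, without overlap (0.257 against 2.09 CPM, log2 ratio -3.03, not tested). Trbv12-2 led this with 0 and 0 against 10 and 10 counts. It was too low to be tested and passed only when no filter was used (adjusted p = 0.0024). In DN3 cells of day 7, Trbv sums were 27 and 23 counts in floxed and 28 and 54 in control cells, and overlapped once scaled to library totals (4.57 and 3.11 against 3.96 and 5.58 CPM).

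By mean CPM the leading beta segment was Trbv12-1 or Trbv29 in the DN3 groups that had one in use and Trbv13-2 in the ILC2 groups, given here with no test. In lung dKO that rank rests on library 1, with 65 counts of Trbv13-2 and 4 of Trbv2, whereas library 3 had 1 and 40. Trbv12-1 had 62 counts over the 12 DN3 libraries, at least 1 in each, 2 over the 12 DN1 libraries, and 1 over all 7 ILC2 libraries. Trbv29 had 43 counts over all 12 DN3 libraries, 1 in DN1 and 2 in ILC2. Trbv13-2 ran the other way, with 37 counts in DN1 and 18 in DN3, but 360 in the 2 thymic ILC2 libraries, 66 in lung dKO and 425 in lung Id1. Across the 24 culture libraries, log2(CPM + 1) of Trbv12-1 followed that of Trgv2 more closely than any other well-counted segment did (Pearson r = 0.884), and Tcrg-V3 was closest to Tcrg-V1 (r = 0.891). These libraries share precursors and days, and Tcrg-V3 shares sequence with Tcrg-V1, so the coefficients only describe the pattern.

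**Figure D3:**
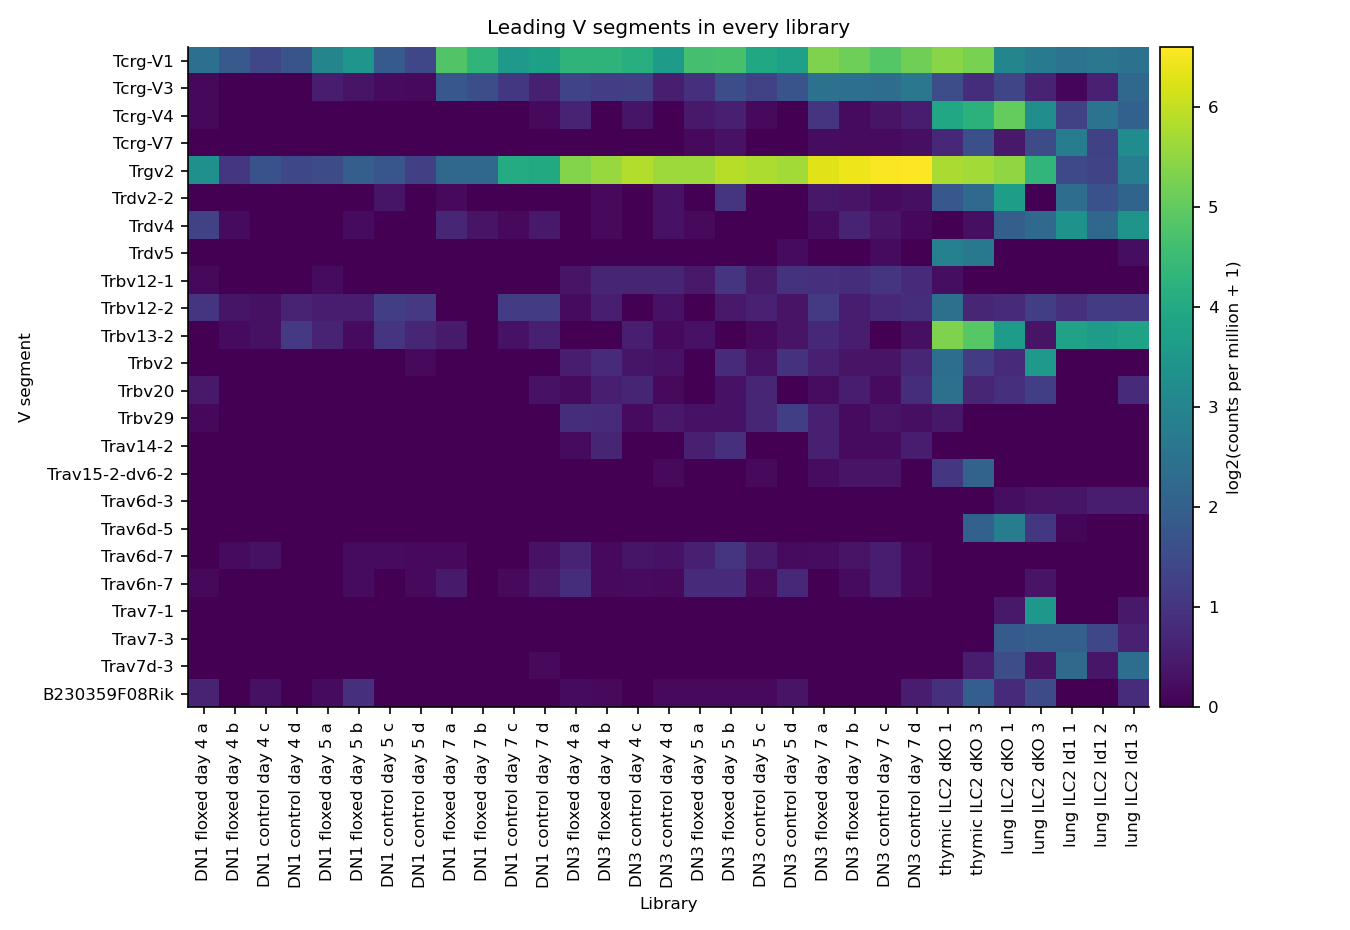
Leading V segments (rows, the 24 that are among the 3 highest used segments of their locus in at least 1 group) as log2(CPM + 1) in each of the 31 libraries (columns). Trgv2 and Tcrg-V1 are bright through the DN3 columns, Trbv13-2 and Tcrg-V4 light up in ILC2, and most alpha rows are near 0 outside the lung.

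Alpha V RNA was low in all cultures, and in DN3 cells of day 7 it was lower in floxed libraries, as Trac and the Traj segments were. On day 7 the Trav segments summed to 10 and 18 counts in floxed and 37 and 43 in control DN3 cells, without overlap (1.69 and 2.44 against 5.24 and 4.45 CPM, log2 ratio -1.23, not tested). Trac, the alpha constant gene, had 32 and 33 counts against 170 and 269 (-2.33 ± 0.44, adjusted p = 0.000588). Of 7 J segments tested, 4 fell and 0 rose, beside 12% of all genes that fell. Traj18, for example, had 35 and 18 counts in floxed and 310 and 414 in control cells (-3.34 ± 0.52, adjusted p = 9.41e-05). Of the 9 listed assembly genes 7 fell, and Rag1 fell by 6.15 ± 0.47 on the log2 scale. The alpha-beta T cell markers summed to 165 and 182 CPM in these floxed cells and 455 and 539 in controls. Trac is 1 of the 7, and the part of the others was not tested.

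On day 5 the order was the other way round. Floxed DN3 cells had 30 and 40 Trav counts and controls 14 and 19, again without overlap, while Traj counts overlapped (208 and 354 against 230 and 253). Among culture groups, this one alone had Trav segments that reached the rule for use: Trav6n-7 with 6 and 6 counts, Trav6d-7 with 4 and 8, and Trav14-2 with 4 and 7. Trav6n-7 and Trav6d-7 are identical in sequence, so their counts cannot be assigned to one or the other. In DN1 cells Trav sums were 0 to 12 counts per library, too few to compare the genotypes. Delta V segments were rarer still. Trdv sums had a median of 1 count per library in DN1 and 4 in DN3, and on day 7 floxed and control libraries overlapped, with 6 and 2 against 1 and 3 counts in DN1 and 4 and 6 against 8 and 5 in DN3.

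**Figure D4:**
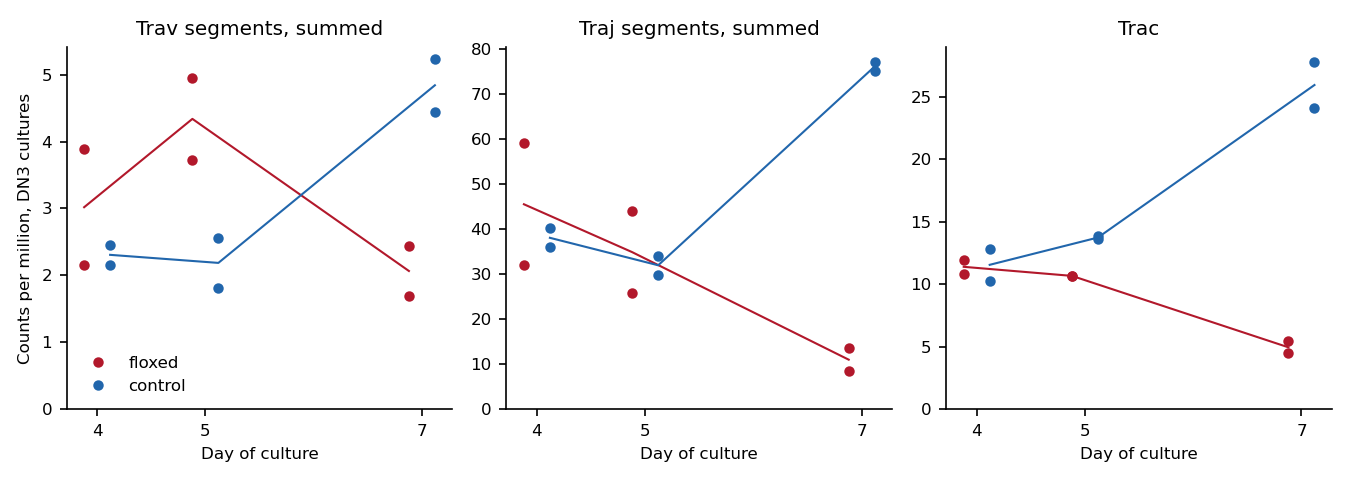
Alpha locus RNA in DN3 cultures: Trav segments summed, Traj segments summed and the constant gene Trac, in CPM (y axes, each from 0) by day of culture, with 1 point per library and lines through the means of floxed (red) and control (blue). At day 7 floxed points lie below control points in all 3 panels, and the Trav panel reaches only 5.24 CPM where the Traj panel reaches 76.9.

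Thymic dKO ILC2 carried the same leading gamma pair as the cultures of both precursors. The ratio of Trgv2 to Tcrg-V1 counts was 1.29 and 1.33 in these ILC2. On day 7 it was 1.47 and 1.21 in control and 0.139 and 0.191 in floxed DN1 cells, and 2.01 and 2.47 in floxed DN3 cells. Beyond this pair, thymic ILC2 carried a set of V segments that floxed DN3 cells of day 7 hardly showed. Trbv13-2 had 222 and 138 counts (39.1 and 28.6 CPM) in ILC2 against 4 and 3 counts in the cultured cells. Tcrg-V4 had 80 and 86 counts against 6 and 1. The ILC2 libraries were far above the cultures for both. Both segments entered the fit only through their ILC2 counts, so no test of them is given.

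Delta segments followed. Trdv5 had 37 and 26 counts against none, at least 26.6-fold higher (floor of 3 counts over the cultured group), and only 4 counts in the other 29 libraries of the series. Trdv2-2 had 14 and 18 counts against 2 and 2. For both delta segments the groups did not overlap. They too entered the fit only through their ILC2 counts, and no test of them is given. Tcrg-V1 passed the edgeR test (0.86 ± 0.23, adjusted p = 0.00244), but its libraries overlapped in CPM, 41.6 and 37.8 against 38.8 and 34.5. Trgv2 was at 53.6 and 50.2 CPM against 77.9 and 85.3, and its scaled difference was 0.09 ± 0.31 with TMM and 0.42 with RLE size factors (adjusted p = 0.824 with TMM, not called). The median log2 difference of all genes was -0.20 in this comparison. Of 7 segments tested 5 rose and 0 fell, beside 33.0% and 38.8% of all genes. Because 4 of the 5 entered the fit only through their ILC2 counts, nothing is read from the count of 5 against these shares.

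Per length, Trbv13-2 (99.7 CPM per kilobase) stood level with Trgv2 (106) and Tcrg-V1 (106) in thymic ILC2. It took 222 of 320 and 138 of 185 Trbv counts. Other beta segments were less even between the 2 libraries. Trbv2 had 24 and 6 counts, Trbv20 25 and 3, and Trbv12-2 25 and 3. Rag1 and Rag2, the recombinase genes, were at 54.1 and 61.5 mean CPM in these ILC2 against 7.55 and 1.27 in floxed DN3 cells (log2 3.63 ± 0.45 and 6.40 ± 0.48, adjusted p 2.26e-07 and 8.18e-11). In DN3 controls of day 7, Rag1 was far higher, at 577 and 498 CPM, and Rag2 lower than in ILC2, at 13.7 and 23.9. Trav segments had 27 and 51 counts with only 7 and 3 counts of Trac, where DN3 controls of day 7 had 37 and 43 with 170 and 269. Trav15-2-dv6-2, whose symbol also names it as a delta segment, was the only Trav segment that met the rule for use, with 6 and 16 counts. The 7 alpha-beta markers summed to 123 and 244 CPM in these ILC2 and 165 and 182 in the cultured cells, with Cd4 at 0 in library 1 and Cd8a at 0 in library 3. The 5 gamma-delta markers, which include Trdc and Tcrg-C1, summed to 1151 and 1113 against 856 and 787. The part of either cell type in these segments was not tested.

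In lung, the gamma segment Trgv2 was higher in ILC2 of dKO mice than in those of Id1 mice. Trgv2 had 249 and 71 counts (44.2 and 19.2 CPM) in dKO and 23, 15 and 68 counts (1.76, 1.55 and 6.04 CPM) in Id1 ILC2. It was higher in dKO by 3.42 ± 0.69 (edgeR adjusted p = 0.0235, at most 0.0499 over 9 alternatives), and both dKO libraries lay above all 3 Id1 libraries. Tcrg-C2, the constant gene next along its strand, was higher too, at a mean 752 against 110 CPM (2.70 ± 0.44, 0.0181), and the other 3 gamma constant genes were not called. Tcrg-V1 was not called, although both dKO libraries lay above the Id1 libraries, with 7.11 and 5.41 against 4.67, 5.17 and 4.53 CPM (0.41 ± 0.89, 0.79). Tcrg-V4 had 178 and 31 counts (31.6 and 8.39 CPM) against 19, 46 and 35 (1.45, 4.76 and 3.11 CPM). Its groups did not overlap, but it was not called (2.54 ± 0.84, 0.0604), except by DESeq2, under the replicate block and without Id1 replicate 2.

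Of 14 segments tested in lung 2 rose and 0 fell, beside 14.4% and 3.66% of all genes, with a median log2 difference of all genes of 0.16. The second was Trav6d-5, with 33 and 4 counts against 1, 0 and 0. It entered the fit only through its dKO counts, so nothing is read from the count of 2 against these shares. Its ratio of pooled CPM was 135 (95% interval 22.8 to 5471, counting error only), and its adjusted p of 0.0288 rose above 0.05 without the filter (0.0696), under the block (0.0832) and without any 1 library except Id1 replicate 2 (0.0612 to 0.15). The spread between lung libraries was wide (common biological coefficient of variation 0.706, against 0.138 in the cultures).

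Trbv13-2 was the leading V segment of Id1 ILC2 in all 3 libraries. Trbv13-2 had 168, 110 and 147 counts, out of 189, 128 and 170 for all Trbv. Trdv4 had 124, 36 and 109 counts, Trdv2-2 had 54, 21 and 38, and Tcrg-V7 had 77, 14 and 93. By the group mean per length Trbv13-2 was the highest of these (36.6 CPM per kilobase), above Trdv4 (17.2), Tcrg-V7 (14.1), Tcrg-V1 (12.8) and Trdv2-2 (8.13). Below Trbv13-2 the libraries did not share that order: in replicate 2, Tcrg-V1 had 50 counts and Tcrg-V4 had 46, above Trdv4. Trav7d-3 with 50, 3 and 48 counts and its near-copy Trav7-3 with 39, 16 and 6 were the 2 highest Trav segments of the group, out of 105, 44 and 70 Trav counts. They had 1 and 0 counts in all 24 culture libraries together.

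The 2 lung dKO libraries differed from each other. Library 1 had 65 counts of Trbv13-2, 66 of Trdv2-2 and 33 of Trav6d-5, and library 3 had 1, 0 and 4. Library 3 had 40 counts of Trbv2 and 39 of Trav7-1, and library 1 had 4 and 2. Trbv13-2 was therefore no basis for a difference from Id1 (-1.20 ± 1.03, adjusted p = 0.457), although without dKO library 1 it was called lower (-5.06, 0.0273). The dKO libraries had counts for 40 and 38 different Trav segments, against 9 to 13 in Id1, and 195 and 167 Trav counts beside 14 and 3 counts of Trac. In the same libraries V pseudogenes reached 18.1 and 11.6 CPM. The 4 B cell markers summed to 38.7 and 15.4 CPM in dKO against 0.306, 2.27 and 2.49 in Id1, with none at 0 in dKO library 1 and Cd79a at 0 in library 3. The 3 lung epithelium markers summed to 47.8 and 14.6 CPM against 3.37, 1.24 and 0.0888. The 7 alpha-beta markers stood at 289 and 31.4 against 173, 203 and 273, and the 5 gamma-delta markers at 650 and 277 against 324, 474 and 430.5. Their part in the V segment counts was not tested.

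**Figure D5:**
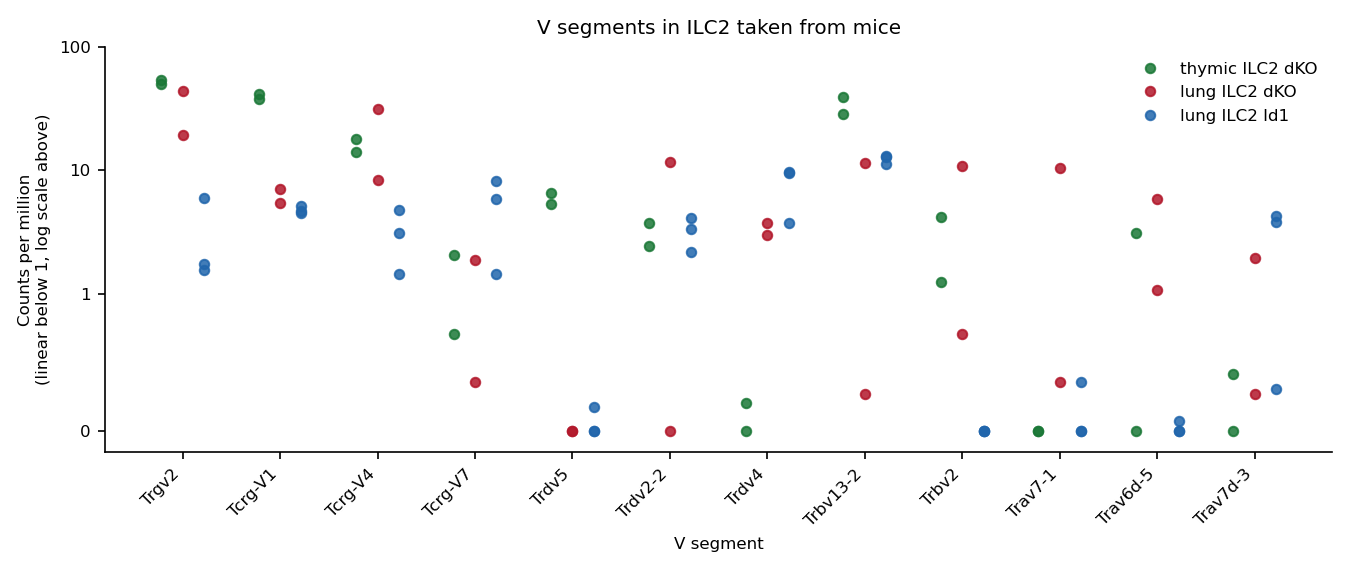
V segments (x axis) in ILC2 libraries as CPM (y axis, linear below 1 and logarithmic above), with 1 point per library for thymic dKO (green), lung dKO (red) and lung Id1 (blue). Trgv2 separates lung dKO (44.2 and 19.2) from lung Id1 (1.55 to 6.04), Trdv5 is near 0 outside the thymus, and the 2 lung dKO points are far apart for Trdv2-2, Trbv13-2, Trbv2 and Trav7-1.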

How the data were processed

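RNA from cultured DN1 and DN3 thymocytes and from ILC2 of thymus and lung was measured by RNA-seq, extracted with Trizol and built into libraries by standard Illumina protocols per the labels. The deposited values are raw read counts per Ensembl gene, made by the authors, in separate tables for thymus (26 libraries) and lung (5). The submitters' processing notes name the build mm10 and DESeq2. For aligner, strand setting and annotation release, nothing is given in the sources used here. Gene counts carry no junctions, so RNA of a rearranged segment and of an unrearranged one cannot be told apart.

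Names, biotypes and positions came from GENCODE M21 (GRCm38, the same assembly as mm10), and sequences from its transcripts. A segment was counted as used in a group with at least 10 counts over the group and at least 1 in every library. Named segments were, per group and locus, the 3 used segments highest in CPM (counts scaled to the library's total), and every segment that passed a comparison without overlap between libraries. Sequence sharing was measured as the percent of a segment's 50-base windows found in another gene's transcripts. Genes kept by filterByExpr (minimum count 10) were fitted with edgeR 4.0.16 under R 4.3.3, by TMM scaling and quasi-likelihood tests with Benjamini-Hochberg adjustment (FDR, threshold 0.05) over all tested genes. The 24 culture libraries, the 26 libraries of the thymus table and the 5 lung libraries were fitted separately, and the scripts were tested on simulated data. Levels in different tables were set side by side only as CPM of each library's own total. Alternatives were RLE size factors, no filter, DESeq2 1.42.0, a replicate block, the compared groups alone and leaving out each library. The members, gene lists and marker lists were chosen with earlier results of these data known. Locus sums were given no test.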

Additional observations from a re-analysis of the deposited data

Results flagged for a closer look

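The day 7 difference of Trgv2 between floxed and control cells was unlike in the 2 precursors by the interaction term of the edgeR fit. The log2 difference between floxed and control cells was -1.999 in DN1 and -0.15 in DN3 cultures, a gap of -1.849 ± 0.53 (SE). Its adjusted p was 0.0357, with a lower level in both floxed libraries of each precursor than in its controls. The gap was called without DN1 floxed a and missed the threshold without any other 1 of the 8 libraries. The test was added after the results were seen.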

How the results depend on the processing

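The counts of called segments that moved by over 1.5 times were these. Without low-count filtering, calls went from 0 to 1 (DN1 day 4), 1 to 2 (day 7 difference between precursors) and 5 to 10 (thymic ILC2). With the compared groups alone DN1 day 7 had 1 call instead of 2, and DESeq2 made 4 calls in lung instead of 2. When each library was left out in turn, calls ranged from 0 to 1 in DN1 day 4, 1 to 2 in DN1 day 7, 0 to 0 in DN3 day 5, 1 to 2 in DN3 controls over time, 1 to 3 in lung and 0 to 1 for the day 7 difference between precursors. With the replicate block, DN3 day 5 went from 1 to 0 calls (Tcrg-V1, log2 0.78, adjusted p = 0.0702), and in lung Tcrg-V4 was gained and Trav6d-5 lost. The block changed no other call. Deviations of same-letter libraries correlated at 0.118 to 0.135 between the 3 days of DN3 floxed cells and at -0.237 to 0.134 elsewhere in the cultures. Floxed and control libraries share no letter, and the letters were not used to pair samples. Without the leading segment the day 7 log2 ratio of the gamma sum turned from 0.06 to -1.40 in DN1 and from -0.09 to 0.20 in DN3, and the Trbv sum of DN1 went from -3.03 to -1.75 (-3.13 to -2.02 with 1 library left out). Segments used, at 30 counts or more, numbered 1 to 3 in the culture groups that moved, 7 in thymic ILC2 and 8 in lung dKO. With at least 3 counts in every library they were 2 in DN1 floxed and 5 in DN3 control of day 4. Thinned to 3695522 counts they were 2 or 3 in the culture groups that moved. Causes were not tested. In the cultures 141 of 144 segments were below the filter at the depth reached and have no test.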

Other observations

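In lung, J segment RNA of the beta and gamma loci ran apart from V segment RNA. Trbj segments, the beta joining segments, summed to 39.9, 27.2 and 51.7 CPM in Id1 ILC2 and to 2.31 and 6.49 in dKO, where Trbv segments were at 14.5, 13.2 and 15.1 against 14.4 and 23.8 CPM. Trbj1-3 had 42, 25 and 40 counts against none, at least 9.78-fold lower in dKO. It entered the fit only through its Id1 counts, so no test of it is given. Trgj segments were at 14.9, 18.2 and 22.9 CPM in Id1 against 7.46 and 2.17 in dKO. Gamma V segments summed to 16.15, 15.3 and 28.4 CPM in Id1 and to 86.2 and 35.7 in dKO. Traj segments, unlike Trbj and Trgj, were higher in dKO, with 11.4 and 29.8 CPM against 0.689, 0.827 and 0.711 in Id1. Trav sums were higher there too (34.6 and 45.2 against 8.04, 4.55 and 6.22 CPM). In dKO library 3, Traj56 alone had 76 of the 110 Traj counts, while library 1 had 2 counts of it.

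In thymic ILC2 the gamma joining segment Trgj4 had 49 and 30 counts against 1 and 0 in floxed DN3 cells of day 7 (ratio of pooled CPM 100.1, 95% interval 17.5 to 4005, counting error only), and the delta joining segment Trdj2 had 31 and 20 against 0 and 2 (ratio 32.3, 8.50 to 274). Both entered the fit only through their ILC2 counts, so no test of them is given. Traj49 and Traj18 had no counts there against 48 and 53 in the cultured cells, at least 12.6-fold and 13.9-fold lower. The V pseudogene Trav22 had 54 counts against 0, at least 22.8-fold higher.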
